A study of Homo sapiens with 6 samples.

Results

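The expression of 10 hepatic iron handling genes was examined in Huh7 cells, a human hepatoma cell line, after transfection with a plasmid that overexpresses hsa_circ_0098181 or with a control plasmid. The genes were TF, TFRC, TFR2, HAMP, SLC40A1, FTH1, FTL, HFE, SLC11A2 and IREB2. They were picked by gene symbol from knowledge of iron handling, at a time when results of these data were known, and all 10 were found among the 50868 genes of the count table. All 10 also passed the filter on low counts, as did 15055 genes in total. RNA was taken 48 hours after transfection by lipofection, and there were 3 libraries per group. Both groups were of the same cell line and received the same transfection, so that they differed by the plasmid. The labels do not say that the replicates came from separate cultures, so the p-values measure only the spread between these samples, which may be technical. A single hepatoma line in culture has none of the Kupffer cells, the macrophages of the liver, that recycle iron in the organ.

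Hepatocytes take up iron bound to transferrin, store it in ferritin and release it through ferroportin. They also make hepcidin, the hormone that binds ferroportin and causes its breakdown, and so set the iron level of the body. Within the cell, the iron regulatory proteins bind hairpins called iron-responsive elements in the untranslated regions of messenger RNAs when iron is low. A hairpin in the 5′ UTR then blocks translation, and those in the 3′ UTR protect the message from decay, so that counts of messenger RNA can follow the second kind of control but not directly the first.

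Matches to the iron-responsive element are shown because this hairpin links several of the genes. The search asked for a C, 5 further bases, the loop CAGTGN and 5 bases that pair with those before the loop, with G-T pairs allowed, on the sense strand of the GENCODE 29 UTRs (GRCh38). Of 19659 protein-coding genes, 0.86% held a match in a UTR, 0.183% in a 5′ UTR and 0.677% in a 3′ UTR. Within the gene bounds of the count table, 4 of the 10 genes held one. FTH1 held 1 match in its 5′ UTR. The matches of FTL, which encodes the ferritin light chain, and of SLC40A1, which encodes ferroportin, were also in the 5′ UTR. TFRC, which encodes transferrin receptor 1, held 4 matches in its 3′ UTR. In the sequences, written 5′ to 3′ on the strand of the gene, capitals mark the loop.
FTL, chr19:48965335-48965363, plus strand: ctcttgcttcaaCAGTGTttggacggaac
SLC40A1, chr2:189580661-189580689, minus strand: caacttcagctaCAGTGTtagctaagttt
TFRC, chr3:196050979-196051007, minus strand: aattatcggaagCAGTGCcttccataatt
TFRC, chr3:196050575-196050603, minus strand: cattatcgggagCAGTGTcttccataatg
TFRC, chr3:196050510-196050538, minus strand: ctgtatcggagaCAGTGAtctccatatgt
TFRC, chr3:196050463-196050491, minus strand: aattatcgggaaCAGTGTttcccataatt
The 4 hairpins of TFRC carried 3 different last loop bases. FTL and SLC40A1 shared the same loop, which was also among those of TFRC. A further match, in the GENCODE 29 3′ UTR of TF, lies past the end of TF in the count table. TFR2, HAMP, HFE, SLC11A2 and IREB2 held no match. This says only that these letters and pairs were not in their UTRs, since elements with a bulge elsewhere in the stem are missed, and the matches do not divide the genes into those with and without this control. A match was not measured as a bound site.

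Library totals ran from 11130902 to 14138262 counts, and SOX5, the host gene whose exons form hsa_circ_0098181, had a mean of 2104 CPM (counts scaled to a common library size) after overexpression and 35.8 CPM in the control (log2 fold change 5.88, SE 0.16, edgeR adjusted p = 2.60e-06). A gene count does not tell the circle from linear SOX5. Mitochondrial genes held 9.29% of the counts in control replicate 1 and 6.32% to 7.04% in the other 5 libraries. The label of a liver cancer line was checked against markers. All 8 hepatocyte and hepatoma markers were detected, with a summed level of 31472 to 34201 CPM after overexpression and 30561 to 36379 CPM in the control. They were ALB, AFP, APOA1, APOB, SERPINA1, TTR, FGB and TF, and TF is also among the genes examined here. Of the erythroid markers, HBB, HBA1, HBA2 and SLC4A1 were at 0 in every library, and ALAS2 had at most 1 count. The macrophage markers summed to 10.6 to 14.6 CPM after overexpression and 9.88 to 16.0 CPM in the control, and 3 of the 6 (CD163, MARCO and CSF1R) were at or under 3 counts in each library. The stellate and fibroblast markers summed to 20.2 to 22.4 and 20.1 to 23.1 CPM, and all 6 were above 3 counts in at least 1 library. The endothelial markers summed to 55.9 to 57.7 and 50.1 to 61.4 CPM, nearly all from PECAM1, with CDH5 and STAB2 at 0.

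None of the 10 genes differed between the groups beyond the replicate spread at an adjusted p of 0.05. By edgeR's quasi-likelihood test, adjusted over all genes tested, the adjusted p-values of the 10 ran from 0.797 to 0.995. The background was 0.0399% of the genes tested, that is 6 genes, of which 4 were higher and 2 were lower after overexpression. At an unadjusted p under 0.05 there was 1 of the 10, HFE, where 5.5% of all genes tested passed. DESeq2 also called 0 of the 10 at an adjusted p of 0.05 and 1 at an unadjusted p under 0.05. Limma on FPKM, whose filter left out HFE and TFR2, had 0 at either threshold. Of the 10, 7 had a fold change above 1 and 3 below it, with a median log2 fold change of 0.09, where the median over all genes tested was 0.0023 and 50.5% were above 0. In 0 of the 10 were the groups free of overlap, where 12.9% of all genes tested did not overlap. In whole cultures, fewer cells that express a gene and less RNA per cell cannot be told apart.

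The width of the 95% intervals says what these libraries could have shown. For 7 of the genes the whole interval lay within a 1.5-fold difference either way, and these were the 7 with a mean of at least 57.8 CPM in the control. The intervals of TFR2, HAMP and HFE, with 13.7 CPM or less in every library, reached past 1.5-fold, so that a difference of that size lies within the intervals of these genes.

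**Figure D1:**
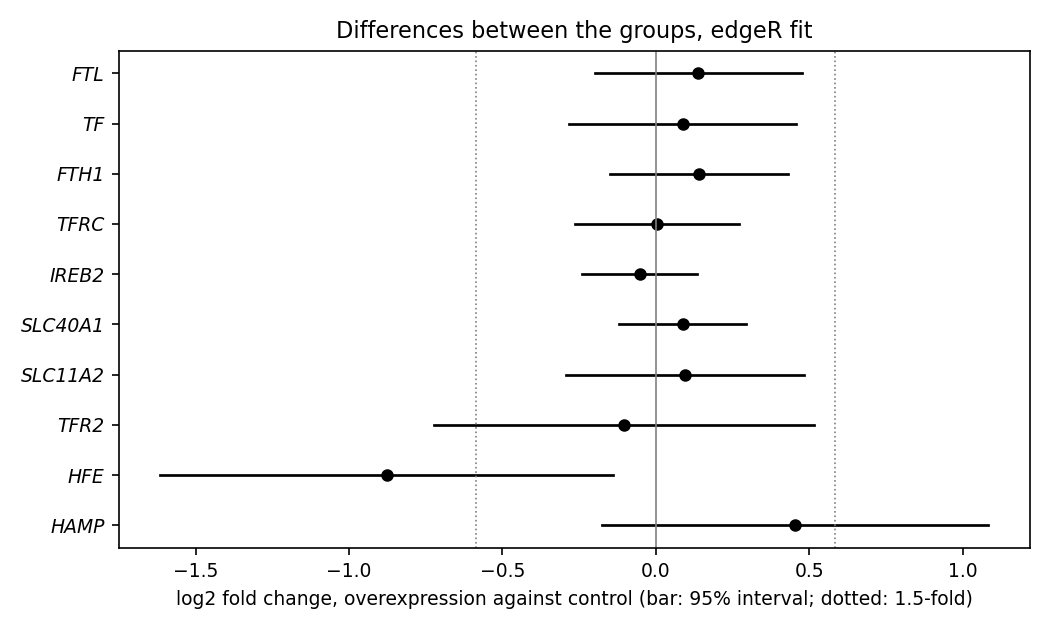
Log2 fold change of each gene (x axis, overexpression of hsa_circ_0098181 against control, edgeR fit on 3 libraries per group) with its 95% interval as a bar. Genes are ordered from the top by mean CPM in the control, not scaled to length. The dotted lines mark 1.5-fold either way, and only the interval of HFE, from -1.62 to -0.14, leaves out 0.

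The levels of the genes spanned a wide range. On a scale per length, as CPM per kilobase of the principal transcript, the order in the control was FTL (5839), FTH1 (1597), TF (750), TFRC (138), SLC40A1 (40.1), IREB2 (30.97), SLC11A2 (13.9), HAMP (7.48), TFR2 (3.18) and HFE (1.25). The order held in each of the 6 libraries. The ranges over the 6 libraries did not overlap between neighbours, with 1 exception, SLC11A2 (10.3 to 16.4) and HAMP (5.24 to 13.4). The deposited FPKM values, which use another gene length, gave the same order of means in the control, from 3691 ± 794 FPKM for FTL to 0.577 ± 0.218 FPKM for HFE (mean ± SD, n = 3). The distances between genes changed with the length used. FTH1 had a mean of 319 FPKM in the control, so FTL stood further above it than the 3.66-fold on the principal transcript. With all annotated exons of a gene merged as its length, TFR2 (1.97) stood above HAMP (1.62). TFRC (89.3) also stood above TF (84.98) on this length. The merged length of TF takes in exons past the end of TF in the count table, so TF is understated there and its order against TFRC is not informative. Together the 10 genes held 0.872% to 1.2% of the counts of a library, and the ferritin genes FTL and FTH1 held 0.548% to 0.83%.

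**Figure D2:**
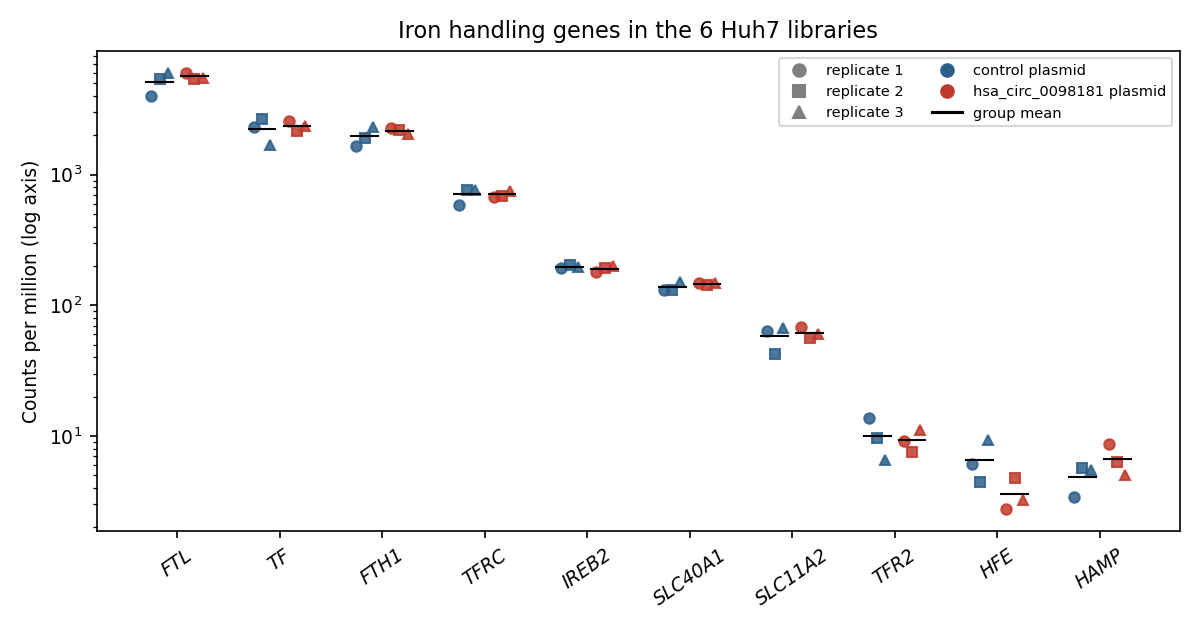
CPM (log axis) of the 10 genes in the control libraries (blue) and the hsa_circ_0098181 libraries (red), with replicates 1 to 3 as circle, square and triangle and a line at each group mean. The red and blue points overlap for every gene, and the blue points are spread more widely than the red ones for 8 of the 10.

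For iron uptake, the carrier and its receptors were measured. TF (ENSG00000091513, chr3:133745956-133779006, plus strand) encodes transferrin, the iron carrier of plasma. For replicates 1, 2 and 3 in turn, an order kept for every gene, TF had 2565, 2166 and 2367 CPM after overexpression and 2327, 2670 and 1682 CPM in the control. The lowest and the highest library were both controls. TF had a log2 fold change of 0.09 (SE 0.16, edgeR adjusted p = 0.914), and without control replicate 3 it was -0.08. The table ends TF 17634 bases before GENCODE 29 does. Over its longer GENCODE 29 bounds, TF shares 191 exon bases with TFP1, a transferrin pseudogene, and 112 with SRPRB. TFP1 had 25 to 71 counts a library and SRPRB 1107 to 1950, against 20441 to 36231 for TF. Whether the shared bases lie within the shorter TF of the count table was not examined.

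TFRC (ENSG00000072274, chr3:196027183-196082189, minus strand) encodes transferrin receptor 1, which brings transferrin-bound iron into the cell. TFRC had 676, 689 and 753 CPM after overexpression and 589, 758 and 765 CPM in the control. The means of the groups were 706 ± 41.2 and 704 ± 99.4 CPM (SD, n = 3), a log2 fold change of 0.0036 with a 95% interval from -0.26 to 0.27 (SE 0.12, edgeR adjusted p = 0.995). Of the 10 genes this was the smallest difference. TFRC is also the gene with the 4 hairpins of its 3′ UTR printed above. Control replicate 1 was the lowest of the 6 libraries, and without it the log2 fold change was -0.11.

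TFR2 (ENSG00000106327, chr7:100620416-100642779, minus strand) encodes transferrin receptor 2, a sensor of transferrin saturation in hepatocytes. Its values were 9.20, 7.49 and 11.1 CPM after overexpression and 13.7, 9.62 and 6.58 CPM in the control, from 80 to 148 counts a library. The control libraries spanned the whole range of the overexpression libraries. TFR2 had a log2 fold change of -0.10 (95% interval -0.72 to 0.52, edgeR adjusted p = 0.943), and it was 0.19 without control replicate 1. SLC11A2 (ENSG00000110911, chr12:50979401-51028566, minus strand) encodes DMT1, which carries ferrous iron across membranes. SLC11A2 had 68.5, 56.6 and 60.1 CPM after overexpression and 63.7, 42.8 and 66.9 CPM in the control. Control replicate 2 stood below the other 5 libraries. Its log2 fold change was 0.10 (SE 0.17, edgeR adjusted p = 0.912), and -0.08 without that library.

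For iron release and its hormone, ferroportin and hepcidin were measured. SLC40A1 (ENSG00000138449, chr2:189560579-189583758, minus strand) encodes ferroportin, the exporter of iron from cells. It had 148, 144 and 147 CPM after overexpression and 132, 130 and 152 CPM in the control. The overexpression libraries lay close together (146.6 ± 2.29 CPM, SD, n = 3), and control replicate 3 was above all of them. Ferroportin had a log2 fold change of 0.09 (SE 0.09, 95% interval -0.12 to 0.29, edgeR adjusted p = 0.847). It was 0.06, 0.05 and 0.16 without control replicates 1, 2 and 3.

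HAMP (ENSG00000105697, chr19:35280716-35285143, plus strand) encodes hepcidin. HAMP had 8.71, 6.35 and 5.01 CPM after overexpression and 3.41, 5.71 and 5.51 CPM in the control, from 37 to 123 counts a library. The highest value was in overexpression replicate 1 and the lowest in control replicate 1, and overexpression replicate 3 was below 2 of the controls. Its log2 fold change was the largest positive one of the 10, 0.45 (SE 0.28, 95% interval -0.18 to 1.08, edgeR adjusted p = 0.797). It was 0.22 when overexpression replicate 1 was left out and 0.26 when control replicate 1 was.

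HFE (ENSG00000010704, chr6:26087281-26098343, plus strand) encodes an MHC class I-like protein that binds both transferrin receptors and is mutated in hereditary haemochromatosis. HFE had 2.76, 4.78 and 3.23 CPM after overexpression and 6.09, 4.43 and 9.30 CPM in the control, from 39 to 113 counts a library. Overexpression replicate 2 was above control replicate 2, and the other libraries were in the order of their groups. The group means were 3.59 ± 1.06 and 6.61 ± 2.48 CPM (SD, n = 3). This gave a log2 fold change of -0.88 (SE 0.32, 95% interval -1.62 to -0.14, edgeR unadjusted p = 0.025, adjusted p = 0.797), so that the difference did not pass after adjustment over all genes tested. With overexpression replicate 1, 2 or 3 left out, the unadjusted edgeR p was 0.0839, 0.0123 or 0.0699. With control replicate 1, 2 or 3 left out, the unadjusted edgeR p was 0.0397, 0.00855 or 0.109. The log2 fold change was between -1.14, without overexpression replicate 2, and -0.54, without control replicate 3. By an exact permutation test, two-sided, HFE had p = 0.2, where 3 against 3 libraries cannot go below 0.1.

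For iron storage, the ferritin chains were measured. FTH1 (ENSG00000167996, chr11:61959718-61967660, minus strand) encodes the heavy chain, which oxidises iron for storage. FTH1 had 2284, 2185 and 2027 CPM after overexpression and 1662, 1909 and 2316 CPM in the control. For FTH1 the log2 fold change was 0.14 (SE 0.13, 95% interval -0.15 to 0.43, edgeR adjusted p = 0.832). It was 0.04 without control replicate 1, and 0.28 without control replicate 3, with an unadjusted edgeR p of 0.035 and an adjusted p of 0.669. FTH1 shares 1267 of its 2030 merged exon bases with BEST1 on the opposite strand. BEST1 had 5 to 18 counts a library, which does not show how reads in the shared bases were assigned. Whether the counting used strand is not given in the sources used here.

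FTL (ENSG00000087086, chr19:48965301-48966878, plus strand) encodes the light chain, which helps iron to form the mineral core. FTL had 6025, 5401 and 5509 CPM after overexpression and 3970, 5403 and 6007 CPM in the control. Control replicate 1 was the lowest library for both ferritin chains, as it was for TFRC and HAMP. This library also had the highest mitochondrial share, and the part of that share in these values was not tested. The log2 fold change of FTL was 0.14 (SE 0.15, 95% interval -0.20 to 0.48, edgeR adjusted p = 0.852), and -0.01 without control replicate 1.

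The balance of the ferritin chains was examined within each library, where no scaling between libraries is needed. There were 2.64, 2.47 and 2.72 counts of FTL per count of FTH1 after overexpression, and 2.39, 2.83 and 2.59 in the control. The control libraries held both the lowest and the highest ratio. On the log2 scale the means were 1.38 ± 0.0698 and 1.38 ± 0.122 (SD, n = 3), a difference of 0.0052 (exact two-sided permutation p = 1, the smallest possible being 0.1).

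The ferritin genes have many processed pseudogenes, copies without introns, that share sequence with them. The table listed 25 FTH1 and 16 FTL pseudogenes, of which 14 and 7 had counts. Counts at the FTH1 pseudogenes came to 40.4%, 32.9% and 30.9% of those at FTH1 after overexpression, and to 55.1%, 36.3% and 33.2% in the control. Control replicate 1 was the highest of the 6, and the groups overlapped. Counts at the FTL pseudogenes were 0.834% to 1.090% of those at FTL after overexpression and 1.092% to 2.31% in the control. The highest was again control replicate 1. Here the groups did not overlap, though only narrowly, and the difference was not tested. FTH1P2 alone held 30619 counts over the 6 libraries. Of the 7 pseudogenes with at least 100 counts in all, the log2 fold changes ran from -0.37 (FTLP3, edgeR adjusted p = 0.797) to 0.23 (FTH1P23, adjusted p = 0.805), and 35.6% to 51.0% of their 31-base stretches were shared with the parent. The handling of reads with more than 1 match is not given, so the counts of FTH1 are uncertain to this extent. With the pseudogene counts added, the log2 fold change was 0.08 for FTH1 and 0.13 for FTL (edgeR adjusted p = 0.875 and 0.855), and the log2 ratio of the chains differed by 0.07 (exact permutation p = 0.9).

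**Figure D3:**
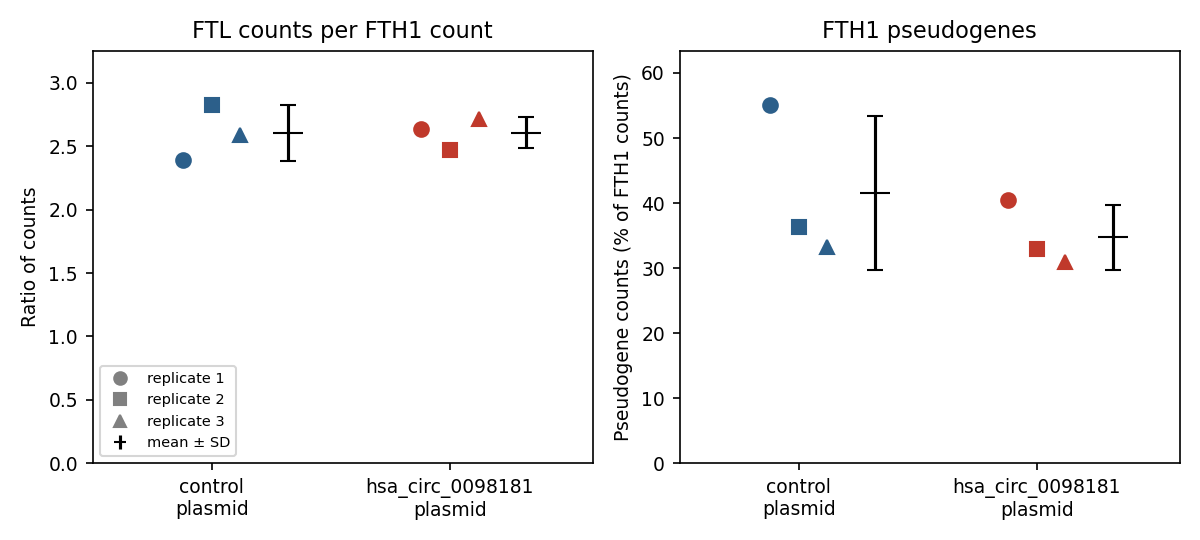
Left, counts of FTL per count of FTH1 in each library. Right, summed counts of FTH1 pseudogenes as a percentage of FTH1 counts. Both axes start at 0, points are replicates 1 to 3 (circle, square, triangle) and bars show mean ± SD. The ratio lies between 2.39 and 2.83 in all 6 libraries, and the pseudogene share is highest, at 55.1%, in control replicate 1.

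For the control of these messages by iron, IREB2 was measured. IREB2 (ENSG00000136381, chr15:78437431-78501456, plus strand) encodes iron regulatory protein 2, which binds the hairpins when iron is low. IREB2 had 180, 191 and 198 CPM after overexpression and 192, 201 and 197 CPM in the control. Its GENCODE 29 transcripts shared at least 50 stretches of 31 bases with those of 25 other genes, as those of TF did with 30. For TF the whole transcripts were used, which run past the end of TF in the count table. Stretches found in more than 20 other genes were left out, as were genes overlapping in position. On this count, TFRC, TFR2, HAMP, SLC40A1, HFE and SLC11A2 had 0 genes that shared as much. IREB2 varied least over the 6 libraries, with a highest value 1.12 times the lowest. The log2 fold change was -0.05 (SE 0.08, 95% interval -0.24 to 0.13, edgeR adjusted p = 0.899). It was -0.015 without overexpression replicate 1 and -0.085 without overexpression replicate 3.

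The spread between replicates was wider in the control for 8 of the 10 genes, with HAMP and IREB2 as the exceptions. The median coefficient of variation of the 10 was 21.5% in the control and 7.2% after overexpression. Over all genes tested the medians were 13.4% and 10.0%, and 61.3% of genes varied more in the control. The 4 genes lowest in control replicate 1 stand beside 26.5% of all genes tested that were lowest there. The difference in spread was not tested.

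Further genes of iron and haem handling were examined as 81 listed genes, of which 68 were tested and 13 had too few counts. Among the 13 were ALAS2, the erythroid haem synthesis enzyme, with at most 1 count, and BMP6, a ligand that induces hepcidin, with at most 12. By edgeR, 0 of the 68 passed an adjusted p of 0.05, and the same was found by DESeq2 and by limma on FPKM. At an unadjusted p under 0.05 there were 2 of the 68 by edgeR, or 2.94%, below the 5.5% of all genes tested. There was 1 of 68 by DESeq2, and there were 4 of 62 by limma. The fold change was above 1 for 44 and below 1 for 24, with a median log2 fold change of 0.06. In 12 genes, or 17.6%, the groups did not overlap, beside 12.9% of all genes tested.

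HMOX1, the haem oxygenase that frees iron from haem, had 65.2, 59.8 and 56.5 CPM after overexpression and 47.8, 49.1 and 54.5 CPM in the control. All 3 overexpression libraries were above all 3 controls. Its log2 fold change was 0.26 (SE 0.10, edgeR unadjusted p = 0.0318, adjusted p = 0.797). BMPR2, a receptor of the bone morphogenetic proteins that drive hepcidin transcription, had 57.3, 57.8 and 62.5 CPM after overexpression and 81.0, 67.4 and 64.3 CPM in the control. Its groups did not overlap either, in the other direction, with a log2 fold change of -0.26 (SE 0.11, edgeR unadjusted p = 0.0464, adjusted p = 0.797). With 1 library left out, the unadjusted edgeR p ran from 0.022 to 0.105 for HMOX1 and from 0.0267 to 0.132 for BMPR2. Both were above 0.05 without overexpression replicate 1, overexpression replicate 2, control replicate 1 or control replicate 2, and under the replicate block (0.0706 and 0.0825).

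In the other role groups the most abundant gene is given. LRP1, a receptor that takes up haem bound to haemopexin, had 725 ± 107 CPM after overexpression and 836 ± 66.9 CPM in the control, and the 9 uptake genes tested had a median log2 fold change of 0.05. CP, the ferroxidase ceruloplasmin, had 23.7 ± 1.24 and 26.0 ± 9.90 CPM, with 14.6 CPM in control replicate 3 against 30.7 and 32.7 CPM in the other controls. ACO1, which encodes iron regulatory protein 1, had 78.4, 79.5 and 80.2 CPM after overexpression and 73.7, 73.8 and 69.9 CPM in the control. These groups did not overlap, and the log2 fold change was 0.13 (SE 0.08, edgeR adjusted p = 0.797). NCOA4, the receptor that takes ferritin to the lysosome, had 380 ± 12.7 and 383 ± 41.5 CPM. ISCU, the scaffold on which iron-sulfur clusters are built in mitochondria, had 76.6 ± 6.24 and 71.3 ± 4.69 CPM. The 18 genes of hepcidin control had a median log2 fold change of 0.0068, the 19 haem genes of 0.08 and the 13 genes of mitochondrial iron of 0.10.

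**Figure D4:**
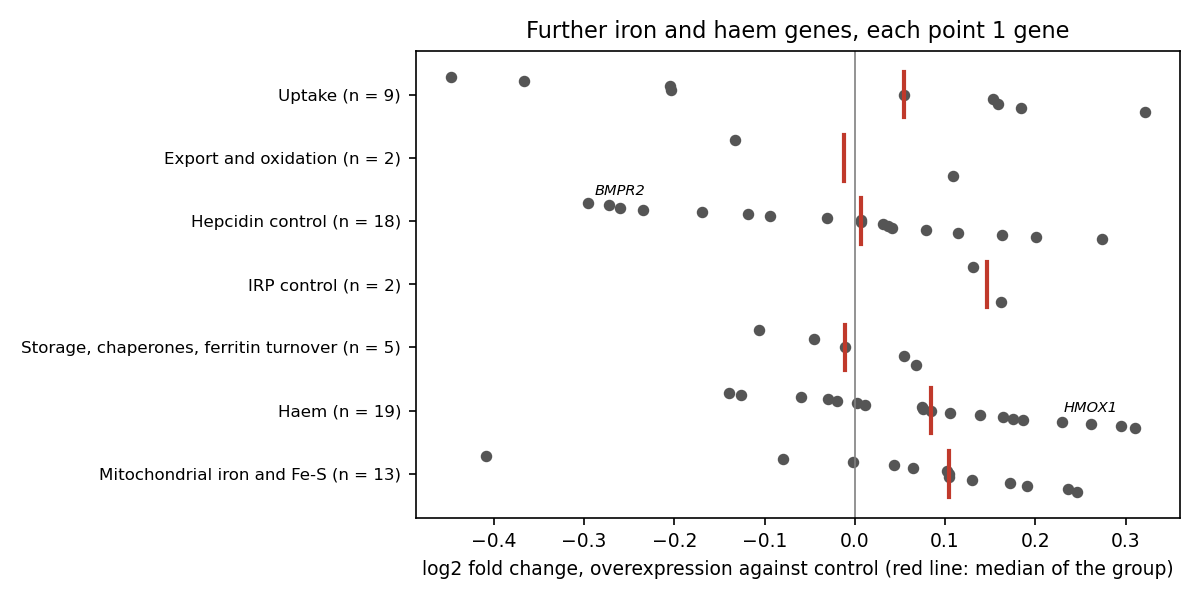
Log2 fold change (x axis, overexpression of hsa_circ_0098181 against control) of the 68 further iron and haem genes tested, each point 1 gene, in 7 role groups with the median as a red line. All points lie between -0.45 and 0.32, and the 2 labelled genes, HMOX1 and BMPR2, had an unadjusted p under 0.05.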

How the data were processed

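RNA sequencing of total RNA from 6 Huh7 libraries was analysed, 3 with the hsa_circ_0098181 plasmid and 3 with the control plasmid, grouped by sample title. In 1 table, the authors deposited for each gene a raw read count and an FPKM value in every library, and the deposited counts were not normalized. The submitters' processing notes name TopHat2 2.0.9 and hg38. The counting tool, strand handling and annotation release are not given in the sources used here. Of the 10 genes, 9 have the bounds of GENCODE 29, and TF ends earlier.

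Counts were tested with edgeR 4.0.16 (R 4.3.3) by glmQLFit and glmQLFTest, with filterByExpr at a minimum count of 10, TMM normalization, group as the only term, two-sided, and p-values of the 15055 genes adjusted by the Benjamini-Hochberg method. A biological coefficient of variation of 16.1% was estimated. CPM used TMM library sizes, and CPM per kilobase the principal GENCODE 29 transcript clipped to the table's bounds. Permutation tests were exact, on log2(CPM + 0.5) for genes. Alternatives were DESeq2 1.42.0, upper-quartile and RLE normalization, no filter beyond 1 count, a mean of at least 50 counts, limma 3.58.1 on log2(FPKM + 1) for genes of at least 1 FPKM in 3 libraries (on this scale fold changes of low genes are understated), a replicate block, each library left out, and ferritin summed with its pseudogenes. Within groups, library pairs differed by 10.1 to 20.9 chi-square per degree of freedom, so none was a copy. Shared sequence was counted in stretches of 31 bases of whole GENCODE 29 transcripts, not clipped to the table's bounds. Stretches found in more than 20 other genes, and genes overlapping in position, were left out. The edgeR, DESeq2, limma and replicate-block fits were checked on simulated data, with the outcome not reported here. The permutation tests were not checked in this way. Floors of 3 counts cover counting error only.

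Named were the 10 genes, SOX5, and from the further iron genes any at an adjusted or unadjusted p under 0.05 and otherwise the most abundant of each role group. BMP6 and ALAS2 were named after their values were seen. The genes and lists were chosen with earlier results of these data known. The value of 1 erythroid marker is not reported here.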

Additional observations from a re-analysis of the deposited data

How the results depend on the processing

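None of the 10 genes passed an adjusted p of 0.05 under any alternative run, and the lowest adjusted p was 0.669. Of 130 recomputed fold changes of the 10 genes, 123 kept their direction and 7 reversed, all on leaving out 1 library. The log2 fold changes then ran from -0.078 to 0.24 for TF (-0.078 without control replicate 3), from -0.11 to 0.068 for TFRC (-0.11 without control replicate 1 and -0.045 without overexpression replicate 3), from -0.33 to 0.19 for TFR2 (0.19 without control replicate 1 and 0.028 without overexpression replicate 2), from -0.013 to 0.27 for FTL (-0.013 without control replicate 1) and from -0.082 to 0.22 for SLC11A2 (-0.082 without control replicate 2). The difference in the log2 ratio of FTL to FTH1 had a lowest value of -0.055, on leaving out control replicate 1, and a highest of 0.067, and was -0.0032 and -0.025 without overexpression replicates 1 and 3. The cause was not tested.

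Over all genes, 6 were called by edgeR and 28 by DESeq2, and 4 to 16 with 1 library left out (16 without overexpression replicate 2 and 10 without overexpression replicate 3). At an unadjusted p under 0.05 the further iron genes numbered 2 in the reported fit, 0 with the replicate block, 0 without overexpression replicate 1 or 2, 1 without overexpression replicate 3, 2 without control replicate 1 or 2, and 6 without control replicate 3. Those passing without control replicate 1 or 2 did not include HMOX1 or BMPR2, the genes of the reported fit. Same-numbered libraries did not deviate together (correlations -0.03, -0.01 and -0.03), so the numbers were not read as pairs. With a replicate block, HFE had a log2 fold change of -0.85 and HAMP of 0.44, 4 genes were called over the table, and 0 of the 10. TFR2 and HFE were not tested by limma, being under its FPKM filter. For HFE, HAMP and TFR2, counting error alone gives a coefficient of variation of 8.98% to 14.3%. The measured ones, from 3 libraries per group, were 19.3% to 37.5%. The part of depth in their spread was not tested.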
